A study of Mus musculus with 18 samples.

Results

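The 8 genes described here are Chil3, Arg1, Retnla, Mrc1, Clec10a, Mgl2, Irf4 and Ch25h, which are used as readouts of the alternative, IL-4 type activation of macrophages. They were chosen by symbol, and all 8 were found among the 21831 genes of the expression table and were tested. Messenger RNA was measured in 18 libraries of cultured mouse peritoneal macrophages. All mice were C57BL/6 and 6 weeks old. The mice had received 1 mL of a 3% solution of the irritant thioglycollate in the abdomen, which recruits macrophages there, and the cells were collected 3 days later. After 4 h on plastic the cells received 20 µM PCN (pregnenolone 16α-carbonitrile), a steroid that activates rodent PXR, a nuclear receptor for foreign compounds, or the solvent DMSO, for 12 h. The genotype called dMye here lacks PXR in myeloid cells, per its label. The genotype called FF carries floxed PXR alleles. The groups were dMye with PCN (dMye_PCN, n = 6), dMye with DMSO (dMye_DMSO, n = 6), FF with PCN (FF_PCN, n = 3) and FF with DMSO (FF_DMSO, n = 3). The labels do not name the Cre driver of the deletion, and they leave unsaid whether each library was its own animal or culture. The p-values therefore reflect library-to-library spread, which may be technical.

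In alternative activation, the cytokines IL-4 and IL-13 bind receptors that contain the chain encoded by Il4ra, and the kinases of the JAK family then activate the transcription factor STAT6. STAT6 and factors such as PPARγ and IRF4 raise a set of genes for secreted proteins (Chil3, Retnla), an enzyme of arginine breakdown (Arg1) and lectins that bind sugars on microbes and glycoproteins (Mrc1, Clec10a, Mgl2). The thioglycollate-elicited macrophage is a long-used model in which these genes are studied, and Ch25h, the enzyme that makes 25-hydroxycholesterol, is also strongly raised by interferon and by microbial products.

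Values are CPM (counts scaled to the total of each library) and came from totals of 21993700 to 30228035 counts. A floor of 3 counts corresponded to 0.0992 to 0.136 CPM, and floors cover counting error only. Pairs of libraries of one group differed by 3.75 to 43.746 times the sampling noise (chi-square per gene), so none was a copy of another. The dMye and FF libraries stood apart on the first principal component, which held 42% of the variance. The Y-linked genes Ddx3y and 3 others summed to between 0.463 and 1.49 CPM in dMye_PCN libraries and 0.63 and 0.993 CPM in dMye_DMSO libraries, against 113 to 137 CPM in FF libraries, so genotype and the sex of the animals cannot be told apart. Nr1i2, the gene of PXR itself, had 3 counts in dMye_PCN, 2 in dMye_DMSO, 1 in FF_PCN and 2 in FF_DMSO, too few to check the genotype labels. The macrophage markers summed to at least 6120 CPM in every library, so the labelled cell type was borne out by its markers. In bulk RNA of this kind, fewer cells of a type and less RNA per cell cannot be told apart.

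The promoters of Chil3 and Retnla are shown because the genes are classical STAT6 targets and because their windows hold a palindrome of the kind that STAT factors bind, TTC and GAA with 3 or 4 bases between them (capitals). The stretches run from base 250 to base 101 before the start, on the coding strand, 150 bases each, from the RefSeq promoter table of GRCm38.p6, at chr3:106167665-106167814 (minus strand) for Chil3 and chr16:48842359-48842508 (plus strand) for Retnla.
Chil3: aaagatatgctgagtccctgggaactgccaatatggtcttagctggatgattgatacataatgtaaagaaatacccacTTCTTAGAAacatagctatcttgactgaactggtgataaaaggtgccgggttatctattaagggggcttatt
Retnla: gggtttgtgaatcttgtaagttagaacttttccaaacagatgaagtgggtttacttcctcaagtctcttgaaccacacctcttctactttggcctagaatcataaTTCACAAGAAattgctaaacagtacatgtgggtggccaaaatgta
In Chil3 the palindrome had 3 bases in the middle and began 172 bases before the start. In Retnla it had 4 bases in the middle and began 145 bases before the start. The starts here are those of the RefSeq promoter table. For Retnla the 250-base window ends at chr16:48842608, past the first base of the GENCODE gene (48842551). Distances from the GENCODE start would therefore be shorter for Retnla. Of the 6 members with a window in that table (Arg1 and Clec10a had none there), Mrc1, Mgl2, Irf4 and Ch25h held no such letters in the 250 bases before the start. Among 32851 windows of the same length, 7.02% held the 3-base form, 5.85% the 4-base form and 12.4% either, so the match describes the letters and is no sign of a used site.

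The members differed widely in level. Per kilobase of exon, Chil3 was the highest in every group, at 174 and 182 CPM per kb in dMye_PCN and dMye_DMSO against 91.9 and 100 CPM per kb in FF_PCN and FF_DMSO. Mrc1 followed, at 23 and 21.3 CPM per kb in dMye_PCN and dMye_DMSO against 16.6 and 15.6 CPM per kb in FF_PCN and FF_DMSO, and its libraries did not overlap those of Chil3 or of Clec10a. Below them came Clec10a, Retnla, Arg1 and Irf4, with Mgl2 and Ch25h last. Clec10a and Retnla overlapped in the dMye groups, Retnla and Arg1 overlapped in all groups but dMye_PCN, and Mgl2 and Ch25h overlapped in all 4 groups. The table gives expected counts, in which a read that fits several genes is divided: Mgl2 and Clec10a lie 18.6 kb apart on chromosome 11 and are related in sequence, and both had values that were not whole (by more than 0.001) in 15 of 18 libraries, so reads could have been divided between them. Mgl2 and Ch25h had 192 and 102 counts over all libraries and passed the filter on low counts (0.39 CPM in at least 3 libraries) only because of dMye: Mgl2 reached that level in 9 dMye and 1 FF libraries, and Ch25h in 4 dMye and 0 FF libraries.

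**Figure D1:**
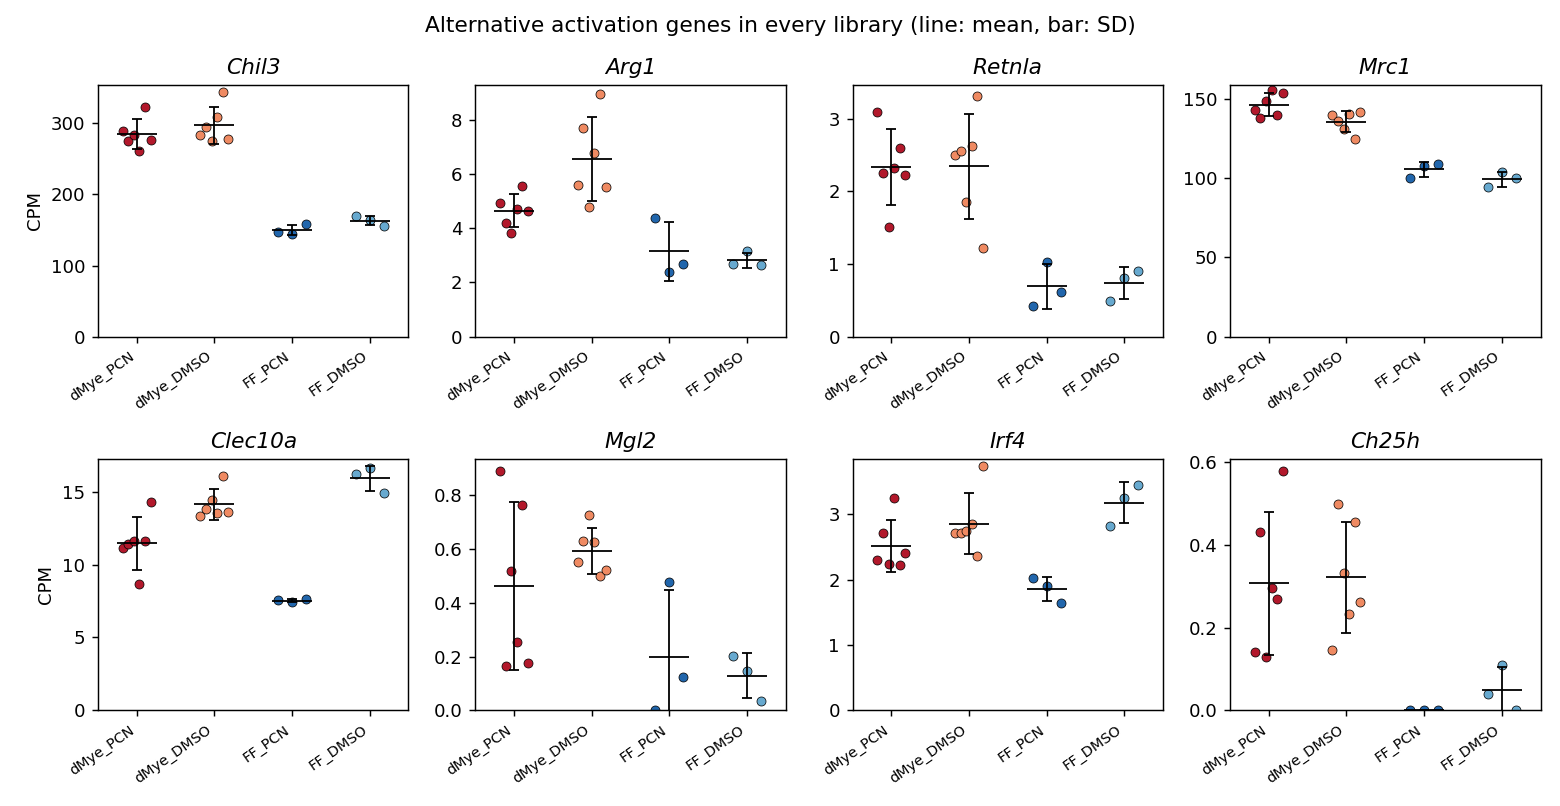
CPM (vertical axes, linear, from 0) of the 8 genes in each of the 18 libraries, by group; the line is the mean and the bar the SD. Chil3, Mrc1 and Retnla lie higher in all dMye libraries than in all FF libraries, while Clec10a and Irf4 are low in FF_PCN.

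The lectin Clec10a (chr11:70156197-70170834, plus strand, GRCm38), a receptor for galactose-type sugars on macrophages and dendritic cells, fell further under PCN in FF cells than the other member called there, Irf4. FF_PCN libraries had 7.54, 7.41 and 7.64 CPM, against 16.2, 16.6 and 14.9 CPM in FF_DMSO libraries. The groups lay far apart and each was tight. The log2 fold change was -1.06 (SE 0.13, adjusted p = 8.5e-06, edgeR's quasi-likelihood test with Benjamini-Hochberg adjustment), a ratio of 0.481. In dMye cells the libraries of the 2 agents overlapped, with a lowest of 8.66, a median of 11.5 and a highest of 14.3 CPM under PCN, against 13.3, 13.7 and 16.1 CPM under DMSO. There the log2 change was -0.31 (SE 0.09, adjusted p = 0.082 by edgeR), which missed the threshold. DESeq2 put it at -0.3 with adjusted p = 0.028, and without dMye_PCN library 6 edgeR gave -0.38 and adjusted p = 0.027.

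The difference between the PCN effect in dMye and in FF was itself tested for Clec10a, and was 0.75 on the log2 scale (SE 0.16, adjusted p = 0.021 by edgeR), so the log2 change was less negative in dMye cells. This call was lost without FF_PCN library 2 (adjusted p = 0.056), FF_DMSO library 1 (0.062) or FF_DMSO library 2 (0.058). It was 1 of 8 members called, where 1.42% of all tested genes were called. dMye_PCN cells had more Clec10a than FF_PCN cells (log2 0.55, SE 0.12, adjusted p = 0.0011, edgeR), with no overlap of libraries, while dMye_DMSO cells did not pass against FF_DMSO cells (-0.20, SE 0.11, adjusted p = 0.2).

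Irf4 (chr13:30749226-30766976, plus strand), a transcription factor that cooperates with STAT6 in macrophages, was the other member that PCN lowered in FF cells. FF_PCN libraries had 2.02, 1.9 and 1.65 CPM, against 2.83, 3.26 and 3.45 CPM in FF_DMSO libraries, with no overlap. The log2 fold change was -0.75 (SE 0.2, adjusted p = 0.012, edgeR), a ratio of 0.594, and without FF_PCN library 3 the adjusted p was 0.057. In dMye cells the lowest, median and highest were 2.22, 2.36 and 3.25 CPM under PCN, against 2.36, 2.73 and 3.75 CPM under DMSO. These libraries overlapped, and the change was -0.18 (SE 0.14, adjusted p = 0.58, edgeR); the difference of the 2 effects, 0.58 (SE 0.24), had adjusted p = 0.29 and did not pass, so the effect is not shown to differ between genotypes. Irf4 libraries of dMye_PCN lay above those of FF_PCN without overlap, but the test gave log2 0.39 (SE 0.18, adjusted p = 0.10, edgeR).

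Across the members, PCN lowered 2 of 8 in FF cells and raised none, where 13.8% of all tested genes were called and 6.98% were called lower; 33.4% of all tested genes had libraries that did not overlap between these groups of 3. The median log2 change of the 8 was -0.08, against 0.009 over all genes. In dMye cells PCN called 0 of 8 by edgeR (1 by DESeq2 and 0 by limma-voom), where 2.08% of all tested genes were called. At an unadjusted p under 0.05 there were 3, Arg1, Mrc1 and Clec10a, where 15.1% of all tested genes reached that level. In dMye the median was -0.12, against -0.01 over all genes. Of those 3, Arg1 had the largest difference: dMye_PCN libraries ran from 3.84 to 5.58 CPM with a median of 4.68, against 4.8 to 8.96 CPM with a median of 6.21 in dMye_DMSO, and the log2 change was -0.5 (SE 0.16, adjusted p = 0.12). The other changes under PCN were bounded as follows. The 95% interval of the log2 PCN change in dMye was -0.19 to 0.05 for Chil3, 0.03 to 0.19 for Mrc1 and -0.47 to 0.45 for Retnla, and in FF -0.27 to 0.07, -0.00 to 0.23 and -0.86 to 0.72.

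Beside the fall of Clec10a and Irf4 under PCN in FF cells, cell type markers moved too. Of all tested genes, 6.81% were called higher and 6.98% lower there. Of 7 B cell markers 4 were lower, and they summed to 8.56 to 11.7 CPM in FF_PCN libraries against 17.4 to 22.8 CPM in FF_DMSO libraries. Dendritic cell markers, a cell type in which Clec10a and Irf4 are also made, summed to 7.06 to 9 CPM in FF_PCN libraries against 11.1 to 11.8 CPM in FF_DMSO libraries, with 0 of 5 tested markers called by edgeR. The macrophage markers summed to 7110 to 7610 CPM in FF_PCN libraries against 10000 to 10800 CPM in FF_DMSO libraries, and 6 of 8 were lower. Most of the difference of these sums was in Lyz2, at 4390 against 7140 CPM, while Cd68 was at 2480 against 2550 CPM. Among the others called lower were Csf1r (98.2 against 131 CPM) and Adgre1 (103 against 125 CPM). Neutrophil markers summed to 116 to 125 CPM in FF_PCN libraries against 154 to 158 CPM in FF_DMSO libraries, with no overlap, and 2 of 5 tested markers, Mmp8 and Csf3r, were lower. These 2 made up nearly all of the sum, with Csf3r at 98.5 against 122 CPM and Mmp8 at 18.3 against 30.1 CPM. Libraries overlapped for S100a8 (1.65 against 2.07 CPM) and S100a9 (0.498 against 0.828 CPM). Cxcr2, Camp, Ngp and Retnlg, all low, had higher means under PCN. The part of these changes in the results was not tested.

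Chil3 (chr3:106147554-106167564, minus strand), which encodes the secreted chitinase-like protein Ym1, was higher in dMye than in FF cells under both agents. It had a lowest of 261, a median of 280 and a highest of 323 CPM in dMye_PCN libraries, against 147, 144 and 158 CPM in FF_PCN libraries. Under DMSO it had 275, 289 and 344 CPM in dMye libraries (lowest, median, highest), against 170, 164 and 156 CPM in FF libraries. No library of one genotype reached the other. The log2 differences were 0.87 (SE 0.08, adjusted p = 2.3e-08) with PCN and 0.84 (SE 0.08, adjusted p = 4.3e-08) with DMSO by edgeR, ratios of 1.83 and 1.79.

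Retnla (chr16:48842551-48844461, plus strand), which encodes the secreted resistin-like protein FIZZ1, had the largest ratios among the 6 members that reached the filter level in every library. dMye_PCN libraries ran from 1.51 to 3.1 CPM with a median of 2.29, against 0.428, 1.03 and 0.619 CPM in FF_PCN libraries. dMye_DMSO libraries ran from 1.22 to 3.32 CPM with a median of 2.53, against 0.485, 0.807 and 0.909 CPM in FF_DMSO libraries. All dMye libraries exceeded all FF libraries given the same agent, by little at the low end. The log2 differences were 1.7 (SE 0.34, adjusted p = 0.00057) under PCN and 1.64 (SE 0.33, adjusted p = 0.00081) under DMSO by edgeR, ratios of 3.25 and 3.12.

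Mrc1 (chr2:14229392-14332057, plus strand), the mannose receptor CD206, differed by less but with the smallest SE of the 8. dMye_PCN libraries ran from 138 to 156 CPM with a median of 146, against 100, 108 and 109 CPM in FF_PCN libraries; dMye_DMSO libraries ran from 125 to 142 CPM with a median of 138, against 94.5, 104 and 100 CPM in FF_DMSO libraries. The groups did not overlap under either agent. The log2 differences were 0.42 (SE 0.05, adjusted p = 2.1e-06) with PCN and 0.43 (SE 0.05, adjusted p = 2.2e-06) with DMSO by edgeR. Its expected counts were not whole in 18 of 18 libraries, so some of its reads had been divided by estimate.

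Arg1 (chr10:24915221-24927484, minus strand), which breaks down arginine to ornithine and urea, was higher in dMye under DMSO. dMye_DMSO libraries ran from 4.8 to 8.96 CPM, against 2.67, 3.15 and 2.65 CPM in FF_DMSO libraries, with no overlap, and the log2 difference was 1.19 (SE 0.21, adjusted p = 0.00022, edgeR), a ratio of 2.28. Under PCN the libraries overlapped, with 3.84 to 5.58 CPM in dMye_PCN against 4.39, 2.38 and 2.68 CPM in FF_PCN, where 1 library was high. That difference was 0.51 (SE 0.21, adjusted p = 0.076, edgeR), and without FF_PCN library 1 it was 0.82 with adjusted p = 0.011. The difference of the PCN effects, -0.68 (SE 0.29), did not pass (adjusted p = 0.32).

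The 2 weakly detected members were also higher in dMye under DMSO. Mgl2 (chr11:70130329-70137550, plus strand), a lectin close to Clec10a, ran from 0.5 to 0.728 CPM (median 0.588) in dMye_DMSO libraries, against 0.202, 0.147 and 0.0364 CPM in FF_DMSO libraries, and the log2 difference was 2.17 (SE 0.73, adjusted p = 0.037, edgeR). The libraries did not overlap, but the call was lost without any 1 of 6 libraries, dMye_DMSO 2, 3 or 4 or FF_DMSO 1, 2 or 3, with adjusted p between 0.051 and 0.17. Under PCN Mgl2 ran from 0.165 to 0.89 CPM in dMye against 0, 0.476 and 0.124 CPM in FF, with overlap and log2 1.14 (SE 0.69, adjusted p = 0.24), and without FF_PCN library 2 it was 2.79 with adjusted p = 0.036. Ch25h (chr19:34473778-34475164, minus strand) ran from 0.129 to 0.579 CPM (median 0.282) in dMye_PCN libraries, 47 counts in all, and was at 0 in the 3 FF_PCN libraries. It was at least 7.66-fold higher against a floor of 3 counts over the group (adjusted p = 0.0016, edgeR). With DMSO it ran from 0.147 to 0.498 CPM (median 0.296) in dMye libraries, 51 counts in all, against 0.0404, 0.11 and 0 CPM in FF libraries, 4 counts in all. The libraries did not overlap, with a log2 difference of 2.54 (SE 0.79, adjusted p = 0.025), which was lost without FF_DMSO library 1 (0.086) or 3 (0.12). PCN gave 0 counts of Ch25h in FF against 4 under DMSO, for which no fold is given.

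**Figure D2:**
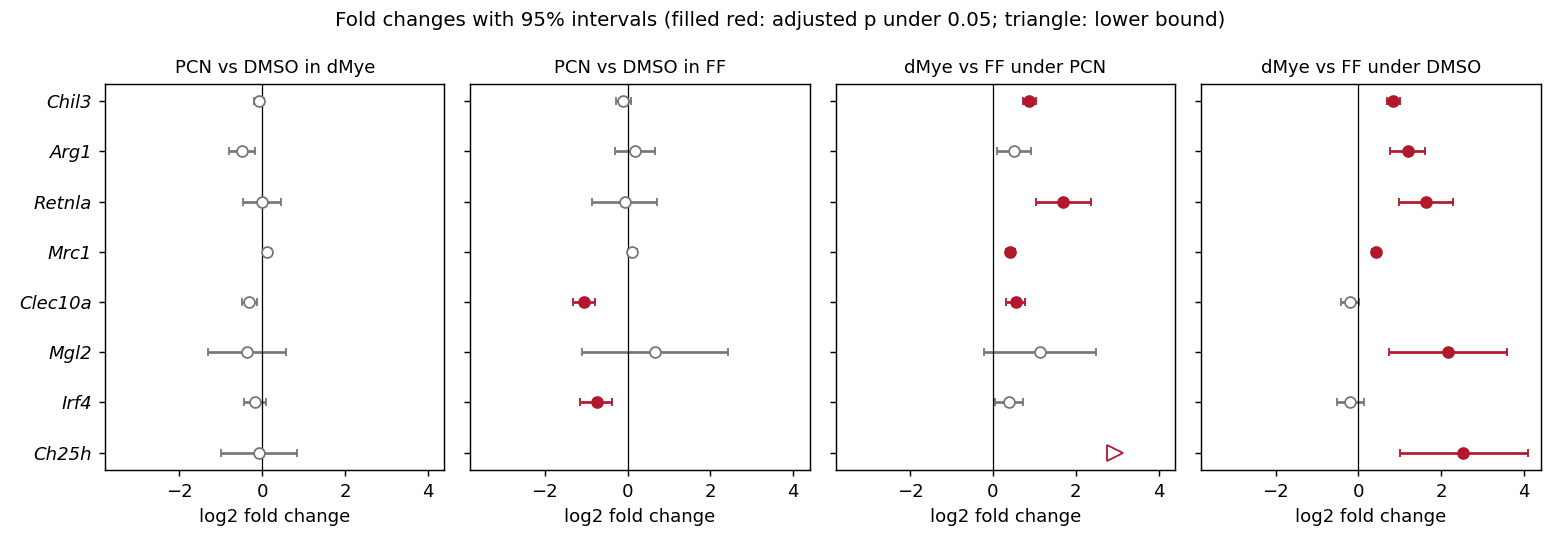
Log2 fold changes (horizontal axes) of the 8 genes in 4 contrasts with 95% intervals; filled red points passed an adjusted p of 0.05, and the open triangle marks the lower bound for Ch25h, whose FF_PCN libraries had 0 counts. Ch25h has no point for PCN in FF. The dMye against FF points lie to the right of 0 except Clec10a and Irf4 under DMSO.

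Counted together, dMye cells were higher in 5 of 8 members under PCN and lower in none, where 27.6% of tested genes were called and 16.2% were higher, and 26.7% of genes had libraries that did not overlap, as did 6 of the 8. With DMSO dMye cells were higher in 6 of 8 and lower in none, where 21.8% were called, 13.9% higher, and 23.6% did not overlap, as did 6 of 8. The median log2 difference was 0.71 with PCN and 1.02 with DMSO, against 0.003 and 0.021 over all genes; with Ch25h at its bound the PCN median was the same. Of the 6 members that passed the filter through FF libraries too, 4 were called under each agent, with medians of 0.53 and 0.63.

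Marker lists of cell types also differed between dMye and FF libraries. Of all tested genes, 16.2% were higher and 11.4% lower in dMye under PCN, and 13.9% and 7.84% under DMSO. Macrophage markers summed to 6120 to 6650 and 6650 to 8280 CPM in dMye_PCN and dMye_DMSO libraries. In FF_PCN and FF_DMSO libraries the sums were 7110 to 7610 and 10000 to 10800 CPM. Lyz2, the largest part of these sums, had means of 3270 and 4060 CPM in dMye against 4390 and 7140 CPM in FF. Of the 8 macrophage markers, 5 were higher and 1 lower in dMye under PCN, and 1 was higher and 2 lower under DMSO. The 8 mesothelial and fibroblast markers were all higher in dMye under both agents, summing to 499 to 585 and 507 to 639 CPM in dMye_PCN and dMye_DMSO libraries against 114 to 127 and 142 to 147 CPM in FF_PCN and FF_DMSO libraries. Resident large peritoneal macrophage markers, among them Gata6 and Timd4, were higher in 6 of 6 and 5 of 6, at 32.4 to 36.1 and 36 to 41.6 CPM in dMye_PCN and dMye_DMSO libraries against 14 to 14.7 and 14.6 to 21.1 CPM in FF_PCN and FF_DMSO libraries. Timd4 passed the filter on low counts (0.39 CPM) only because of dMye, with at most 0.317 and 0.364 CPM in FF_PCN and FF_DMSO libraries. Monocyte and small peritoneal macrophage markers were higher in 3 of 5 under each agent and 1 was lower under DMSO, at 205 to 395 and 196 to 346 CPM in dMye_PCN and dMye_DMSO libraries against 126 to 153 and 135 to 156 CPM in FF_PCN and FF_DMSO libraries. Most of these sums was Fn1, at 303 and 263 CPM in dMye_PCN and dMye_DMSO against 130 and 131 CPM in FF_PCN and FF_DMSO. Folr2 and Lyve1 were also higher. The lower one was the monocyte marker Ccr2, at 1.35 and 1.92 against 1.6 and 2.93 CPM. Ly6c2 was not called, at 2.06 and 2.43 against 2.22 and 3.3 CPM. B cell markers were lower in 2 of 7 under PCN and 5 of 7 under DMSO, and T and innate lymphoid markers, cells that can make IL-4 and IL-13, were lower in 3 of 6 and 5 of 6. Of these, Cd3e and Cd3g passed the filter on low counts (0.39 CPM) only because of FF. Cd3e reached at most 0.427 and 0.117 CPM, and Cd3g 0.249 and 0.262 CPM, in dMye_PCN and dMye_DMSO libraries. Rora, 1 of the 3 lower under PCN, was far above the Cd3 genes, at 47.8 and 42.8 CPM in dMye_PCN and dMye_DMSO against 60.5 and 54.3 CPM in FF_PCN and FF_DMSO. Dendritic cell markers summed to 13.7 to 17.9 and 12.6 to 16.4 CPM in dMye_PCN and dMye_DMSO libraries against 7.06 to 9 and 11.1 to 11.8 CPM in FF_PCN and FF_DMSO libraries, with no overlap under either agent. Of 5 tested, 1 was higher and 1 lower under PCN, and 1 higher and 2 lower under DMSO. The higher one was Dpp4, which made up most of the dMye sums. Its means were 10.6 and 10.4 CPM in dMye_PCN and dMye_DMSO against 2 and 2.85 CPM in FF_PCN and FF_DMSO. The lower ones were Ccr7 under both agents and Flt3 under DMSO, so the list did not move as one. Neutrophil markers summed to 98.8 to 116 and 100 to 119 CPM in dMye_PCN and dMye_DMSO libraries against 116 to 125 and 154 to 158 CPM in FF_PCN and FF_DMSO libraries, and of 5 tested, 1 was lower under PCN and 3 under DMSO. Csf3r made up most of these sums, at 92.6 and 95.5 CPM in dMye_PCN and dMye_DMSO against 98.5 and 122 CPM in FF_PCN and FF_DMSO. The lower ones were Mmp8 under both agents and Csf3r and S100a9 under DMSO. Eosinophil markers, another source of IL-4, reached at most 1.5 CPM in any library, with Epx and Prg2 at 0 in dMye_DMSO, Epx at 0 in FF_PCN, and Ccr3, Epx and Prg2 at 0 in FF_DMSO. The part of these cells in the genotype differences of the 8 genes was not tested, and that of sex cannot be told apart from genotype.

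**Figure D3:**
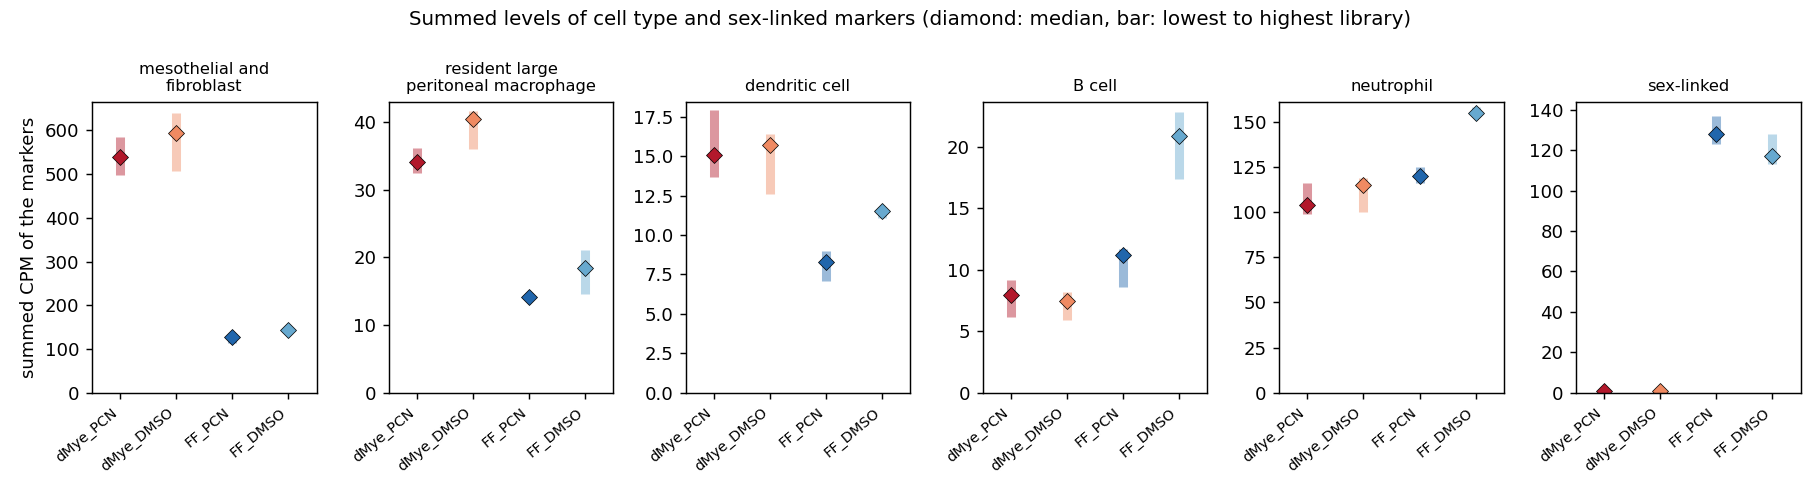
Summed CPM of marker lists for other cell types and of 4 Y-linked genes (vertical axes from 0), by group; diamonds are medians and bars run from the lowest to the highest library. Mesothelial and resident macrophage markers are higher in dMye, Y-linked genes are near 0 there, and B cell markers are highest in FF_DMSO.

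The cytokines that drive the pathway were barely present. Il4 had 1, 3, 5 and 0 counts and Il13 had 0, 0, 5 and 1 counts in dMye_PCN, dMye_DMSO, FF_PCN and FF_DMSO. Their receptor chain Il4ra was at 20.3 ± 2.62 and 22.1 ± 3.03 CPM in dMye_PCN and dMye_DMSO (SD, n = 6 each), against 16.8 ± 2.95 and 18.9 ± 1.29 CPM in FF_PCN and FF_DMSO (SD, n = 3 each), with no call in any comparison. Of the 12 tested genes of receptor and STAT6 signalling, 5 were lower and none was higher in dMye under DMSO, where 7.84% of all tested genes were lower and 13.9% higher. The changes were small: Jak1, -0.23 (adjusted p = 0.00045), Jak2, -0.19 (0.0048), Tyk2, -0.23 (0.0068) and Stat6, -0.15 (0.025), all by edgeR. Under PCN 1 was higher and 2 were lower, where 16.2% and 11.4% of all tested genes were. Ptpn6, a phosphatase that dampens receptor signals, was lower under PCN in FF (-0.77, adjusted p = 1.3e-06) and in dMye cells (-0.39, adjusted p = 0.00051).

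Of 12 transcriptional regulators of the program (factors, coactivators and a histone demethylase), PCN raised 4 in FF cells and lowered none (median 0.23, against 0.009 over all genes), where 6.81% of all tested genes were higher and 6.98% lower. Myc rose by log2 0.56 (adjusted p = 2.1e-05) and Pparg, the gene of PPARγ, by 0.26 (adjusted p = 0.012), at 121 ± 5.35 CPM in FF_PCN against 103 ± 3.22 CPM in FF_DMSO (SD, n = 3 each). In dMye cells 1, Myc, passed, at 0.25 (adjusted p = 0.012, edgeR), where 2.08% of all tested genes were called. Egr2, an IL-4 target and factor, was lower in dMye than FF by -0.52 under PCN and -0.44 under DMSO (adjusted p = 2.5e-06 and 3.1e-05). In all, 3 of 12 were lower and none higher with PCN between genotypes, and 1 was higher and 1 lower with DMSO. That made 25% and 16.7% called, where 27.6% and 21.8% of all tested genes were called.

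Of the 18 other IL-4 induced genes, 14 were tested. Between genotypes 5 were higher and 4 lower in dMye under each agent, but not all the same genes. Tgm2 was higher under DMSO (log2 0.16, adjusted p = 0.01, edgeR) and lower under PCN (-0.13, adjusted p = 0.029, edgeR). Ccl22 was called lower only under DMSO, and Cd163 higher only under PCN. Cd163, with medians of 0.317 and 0.257 CPM in FF_PCN and FF_DMSO, passed the filter on low counts (0.39 CPM) only because of dMye. Of all tested genes, 16.2% were higher and 11.4% lower under PCN, and 13.9% and 7.84% under DMSO. Ptgs1, a prostaglandin enzyme, was higher by log2 1.46 under PCN and 1.39 under DMSO, while the elastase Mmp12 was lower by -0.75 and -0.71 and Il1rn, an inhibitor of IL-1, by -0.9 and -0.45. PCN raised 3 and lowered 1 in FF cells, where 6.81% of all tested genes were higher and 6.98% lower. Il1rn rose by 0.8 (adjusted p = 6.4e-05) and the crosslinking enzyme Tgm2 by 0.38 (adjusted p = 2.3e-05), both by edgeR. Tgm2 also passed for the difference between the PCN effects (-0.29, adjusted p = 0.021, edgeR). Chil4, the close relative of Chil3, had 0 counts in all libraries, and Retnlg, a relative of Retnla, had 12, 19, 17 and 7 counts in dMye_PCN, dMye_DMSO, FF_PCN and FF_DMSO. Chil1 was the only tested chitinase or resistin relative, at log2 0.99 in dMye under DMSO (adjusted p = 0.049, edgeR).

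Around Arg1, 15 of 16 arginine and polyamine genes were tested, and 4 were higher and 2 lower in dMye under each agent. Of all tested genes, 16.2% were higher and 11.4% lower under PCN, and 13.9% and 7.84% under DMSO. Smox, spermine oxidase, was lower by -1.01 with PCN and -0.68 with DMSO, and Ass1, which acts in the remaking of arginine from citrulline, was higher by 0.44 and 0.46. Arg2, the mitochondrial arginase, was called in no comparison. Nos2, which competes for arginine in classical activation, had 13, 9, 6 and 16 counts in dMye_PCN, dMye_DMSO, FF_PCN and FF_DMSO and was not tested. Of 12 tested classical activation genes, 5 were higher and 2 lower in dMye under PCN, and 2 were higher and 2 lower under DMSO. These counts stand beside the same shares of all tested genes. Cxcl10 was at log2 1.74 under PCN and 2.6 under DMSO, and Ciita at -1.15 and -1.09. The medians of Cxcl10 were 0.278 and 0.162 CPM in FF_PCN and FF_DMSO, so it passed the filter on low counts (0.39 CPM) only because of dMye. The same held for Il6, called higher in dMye under PCN, with at most 0.35 and 0.291 CPM in FF_PCN and FF_DMSO libraries. The counts of higher genes rest in part on these 2.

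Of 8 tested lectin relatives, Mrc2, a relative of Mrc1, was higher in dMye by log2 2.02 under PCN and 1.98 under DMSO, and Clec4e, the receptor Mincle, rose with PCN in FF (0.66, adjusted p = 8.1e-06) and in dMye cells (0.23, adjusted p = 0.034), with a difference of -0.43 (adjusted p = 0.033, edgeR). Of the 7 genes of 25-hydroxycholesterol metabolism, 3 were higher and 1 lower in dMye under PCN, where 16.2% and 11.4% of all tested genes were. Under DMSO 3 were higher and none lower, where 13.9% and 7.84% of all tested genes were. Cyp7b1, which breaks 25-hydroxycholesterol down, was higher by log2 3.66 with PCN and 3.04 with DMSO, with 170 and 155 counts in dMye_PCN and dMye_DMSO against 6 and 9 counts in FF_PCN and FF_DMSO. It reached at most 0.117 and 0.145 CPM in FF_PCN and FF_DMSO libraries. Cyp7b1 therefore passed the filter on low counts (0.39 CPM) only because of dMye, and its log2 values rest on few FF counts.

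**Figure D4:**
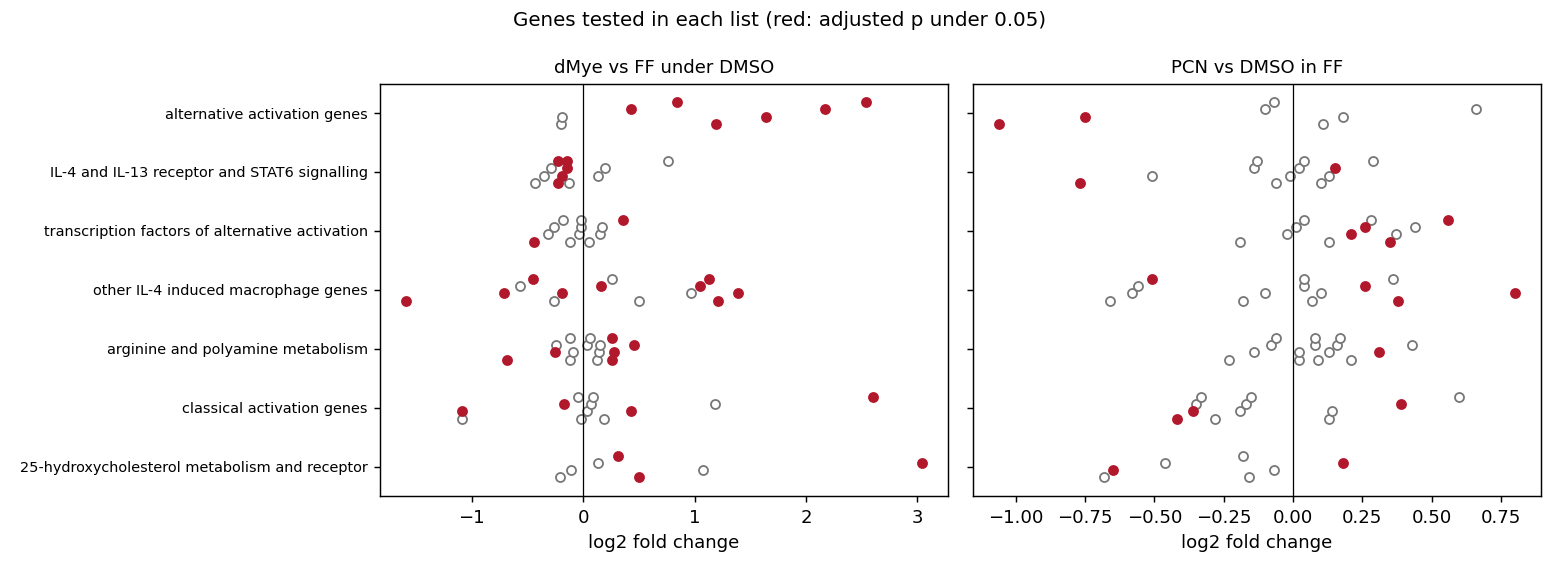
Log2 fold changes (horizontal axes) of the 8 genes and of 6 related gene lists for dMye against FF under DMSO (left) and PCN against DMSO in FF (right); red points passed an adjusted p of 0.05, and Ch25h has no point on the right. The 6 called members lie at 0.43 to 2.54 on the left, and Clec10a and Irf4 are the red points at -1.06 and -0.75 on the right.

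For the members with an SD of at least 0.5 on the log2 scale over the libraries, the genes with the most similar profile were found by the root mean square difference of log2 CPM over 18 libraries. They were Ska2 (0.25), Saa3 (0.26) and Cfb (0.27) for Arg1; Mras (0.31), Ttc9 (0.34) and Cd81 (0.34) for Retnla; Serpinf1 (0.59), Fkbp7 (0.59) and Kif4 (0.6) for Mgl2; and Sgce (0.43), Gpx7 (0.46) and Cdc20 (0.46) for Ch25h.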

How the data were processed

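RNA was sequenced from 18 libraries of cultured peritoneal macrophages in 4 groups. The authors deposited expected counts per gene, estimates that need not be whole (51.2% of values were not), with mm10 as the genome, per the submitters' processing notes. Aligner, annotation and strand use: not given in the sources used here. Expected counts were rounded. Totals ran from 21993700 to 30228035 counts per library. The filterByExpr step of edgeR kept 13411 genes. A single robust quasi-likelihood model (edgeR 4.0.16 in R 4.3.3, TMM) covered the 4 groups with no covariate, and 5 contrasts were drawn from it: the PCN effect within dMye, within FF, their difference, and the genotype difference with PCN and with DMSO. Calls were made at a Benjamini-Hochberg adjusted p under 0.05 over all tested genes; SE is the log2 fold change divided by the root of F. Coordinates and exon lengths came from GENCODE M21 (GRCm38). Alternatives were other scalings, filters, DESeq2 1.42.0, limma-voom (limma 3.58.1), the compared groups alone and leaving out libraries. The fit was tested on simulated data. Every member is named. Of the related lists, up to 4 called genes per list and contrast by smallest p were eligible, and some others set by name. Further genes are named where a count or sum rested on them. The members and lists were chosen with earlier results of these data known. Replicate numbers only name libraries. Intervals cover 95%. Ear11 was not analysed here. One further feature of the labelled genotypes, shared by all 4 groups, is not reported here.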

Additional observations from a re-analysis of the deposited data

Results flagged for a closer look

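Among 16 sets of 6 dMye libraries (8 genes, 2 agents), 2 held a library far from the others, where chance alone flags about 1 in 20 sets. Clec10a was at 16.1 CPM in dMye_DMSO library 5, above a next highest of 14.4 CPM in that group, and Irf4 was at 3.75 CPM in dMye_DMSO library 6, above a next highest of 2.85 CPM. The PCN effect on Clec10a differed between dMye and FF by 0.75 on the log2 scale, by the test of the difference itself (adjusted p = 0.021, edgeR).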

How the results depend on the processing

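Of 713 alternative values of the members' fold changes, 656 kept direction and call, 12 lost the call, 4 gained it and 41 turned direction. The lost and gained calls are named beside the results. All 41 that turned were of fold changes that passed neither way, with adjusted p of at least 0.67. Over all alternatives, the PCN change in dMye ran from -0.14 to 0.12 for Retnla and -0.33 to 0.11 for Ch25h. In FF it ran from -0.15 to 0.34 for Arg1 (negative without FF_PCN library 1), -0.48 to 0.18 for Retnla and -1.0 to 1.23 for Mgl2 (negative without FF_PCN library 2). The difference of the PCN effects ran from -0.01 to 0.1 for Chil3, -0.18 to 0.48 for Retnla, -0.04 to 0.04 for Mrc1 and -1.59 to 0.64 for Mgl2 (positive without FF_PCN library 2). By limma-voom the PCN change was 0.05 for Retnla in dMye and -0.15 for Mgl2 in FF, and without dMye_DMSO libraries 5 and 6 that of Ch25h in dMye was 0.01. The Mrc1 difference of effects was 0.01 with RLE or upper-quartile scaling or DESeq2 and 0.02 with no filter. Genes called for PCN in dMye were 279; DESeq2 called 584, the compared groups alone 144 and the fit without dMye_DMSO libraries 5 and 6 179, and leaving out 1 library gave 137 to 371. Members called there were 1 by DESeq2 and 0 to 1 leaving out 1 library. Genes called for PCN in FF were 1849, and 1201 to 1437 leaving out 1 library, with 1 to 2 members. For the difference of the PCN effects 190 genes were called, 420 by DESeq2 and 42 to 261 leaving out 1 library, with 0 to 1 members. Members called for dMye against FF were 5 to 6 under PCN and 4 to 6 under DMSO leaving out 1 library. Upper-quartile scaling changed the share of calls that were higher to 31.1% (PCN in dMye), 38.2% (PCN in FF), 74.8% (dMye against FF, PCN) and 76% (DMSO), against 45.2%, 49.4%, 58.8% and 64% with TMM. The cause of these shifts was not tested. Mgl2 and Ch25h could not be fitted under the stricter filter (1 CPM in 6 libraries), and the difference of effects has no value with the compared groups alone. No paired analysis was possible because the labels give no replicate numbers. With 3 FF libraries a group and few counts, Mgl2 and Ch25h are limited by depth.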

Other observations

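Library dMye_DMSO 5 was the highest of its group for Chil3, Arg1, Retnla and Clec10a (344, 8.96, 3.32 and 16.1 CPM) and the lowest for Mrc1, Mgl2 and Irf4 (125, 0.5 and 2.36 CPM). Library dMye_DMSO 6 was the lowest for Retnla (1.22 CPM) and the highest for Irf4 (3.75 CPM). Both are in all values above, and without both of them the members called under DMSO were 6, as with them.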
